A study of Mus musculus with 17 samples.

Results

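The citrate cycle burns acetyl-CoA inside the mitochondrion, and the pyruvate dehydrogenase complex makes that acetyl-CoA from pyruvate. The genes described here encode the cycle's enzymes, the pyruvate dehydrogenase complex with its kinases and phosphatases, and the enzymes that refill the cycle or draw malate from it. They were chosen by name, 31 in all, and a gene counted as measured where a probe with that name or its older alias was flagged well above background on 8 or more arrays. That held for 30 of the 31, each represented by its brightest probe, among 18134 genes tested in all. No probe is named for Pdp2, a pyruvate dehydrogenase phosphatase. The rule uses no difference between the diets.

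The RNA came from the epididymal fat pad, a white depot lying along the epididymis, of wild-type adult male C57BL/6J mice. All mice ate a purified high-fat diet (30 energy% fat) for 13 weeks. The carbohydrate in it had a high glycemic index in the HGI group (9 mice) or a low glycemic index in the LGI group (8 mice), the index ranking carbohydrates by how far they raise blood glucose after eating. No group on a low-fat diet was analysed here, so each value describes one high-fat diet against the other. RNA of each mouse was labelled with Cy5, and the 2-colour Agilent array compared it with 1 common pool in Cy3. A level is the log2 of the mouse's signal over that of the pool, and differences are HGI minus LGI on this scale. Every mouse was in the same dye, so only differences between mice can be read.

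In white fat the cycle does more than supply the respiratory chain. Citrate exported from the mitochondrion is split in the cytosol into acetyl-CoA for fatty acid synthesis, and pyruvate carboxylase replaces the oxaloacetate that leaves with it. The kinases switch the pyruvate dehydrogenase complex off by phosphorylation and the phosphatases switch it back on.

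The spread was wide against the differences, and precision is limited by how many arrays there were. On each array 54.2% to 66.7% of the gene spots were well above background in Cy5. All 12 adipocyte markers were measured. HGI 9 and HGI 10 stood apart: the log ratios of these 2 mice had a correlation of 0.81, while their correlations with the other mice were -0.05 to 0.14, and their summed intensity of 7 seminal vesicle markers was 18.3 and 18.5 on the log2 scale, against 14.3 to 14.7 in the other 15 mice. LGI 9 had a log2 summed intensity of 11.4 over 6 ciliated-cell markers, 3 of which were tested, against 9.09 to 9.97 in the other mice. Of the tested ones, Tekt1 had an SD of 0.85 within LGI, and Dnaic1 and Dnah5 had 0.07 and 0.10, so the sum does not describe every marker. The sum of LGI 9 over 6 sperm markers was also the highest, at 9.82 against 8.97 to 9.42. Results are therefore given with and without HGI 9 and HGI 10. The labels number the mice as replicates only, so a p-value reflects the spread among these samples, which may be technical. In bulk tissue, fewer cells of a type and less RNA per cell cannot be told apart.

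Most of the genes were a little lower in HGI fat, and none passed the test singly. Of the 30 measured members, 22 had a lower mean in HGI and 8 a higher one, with differences from -0.18 to 0.31 and a median of -0.09. Over all genes tested, 47.4% had a lower mean in HGI and the median difference was 0.01. The lower members included all 4 listed genes of the pyruvate dehydrogenase complex and all 6 listed from citrate synthase to the isocitrate dehydrogenases. They also included fumarase with both malate dehydrogenases, of which Mdh1 was at 0.01 with median centring. Among the 4 subunits of succinate dehydrogenase Sdha was lower and the other 3 were not, although all 4 were lower with Cy5 intensities alone. The members with the largest spread, Pdp1 and Pdk4, had higher means in HGI.

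By limma, 0 of the 30 members and 0 of all genes (0.00%) reached an adjusted p of 0.05, while 1404 of all genes had an unadjusted p under 0.05, and the smallest adjusted p of a member was 0.572. At an unadjusted p of 0.05, 5 members were lower in HGI and 0 were higher, where 3.78% of all genes were lower and 3.96% were higher by that rule. The 5 were Sdha, Mdh2, Pdk2, Dlat and Dlst. When HGI 9 and HGI 10 were left out, 20 of 30 members were lower, against 49.9% of all genes, and the median was -0.06. In that comparison 3 members, Sdha, Mdh2 and Pdk2, were lower at an unadjusted p of 0.05 and 0 were higher, where 2.75% of all genes were lower and 5.04% were higher. With each array centred on its median in place of loess, 17 of 30 members were lower, 0 of them at an unadjusted p of 0.05, against 41.1% of all genes. Members share mice and pathways, so these counts are a description of the list and carry no test.

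**Figure D1:**
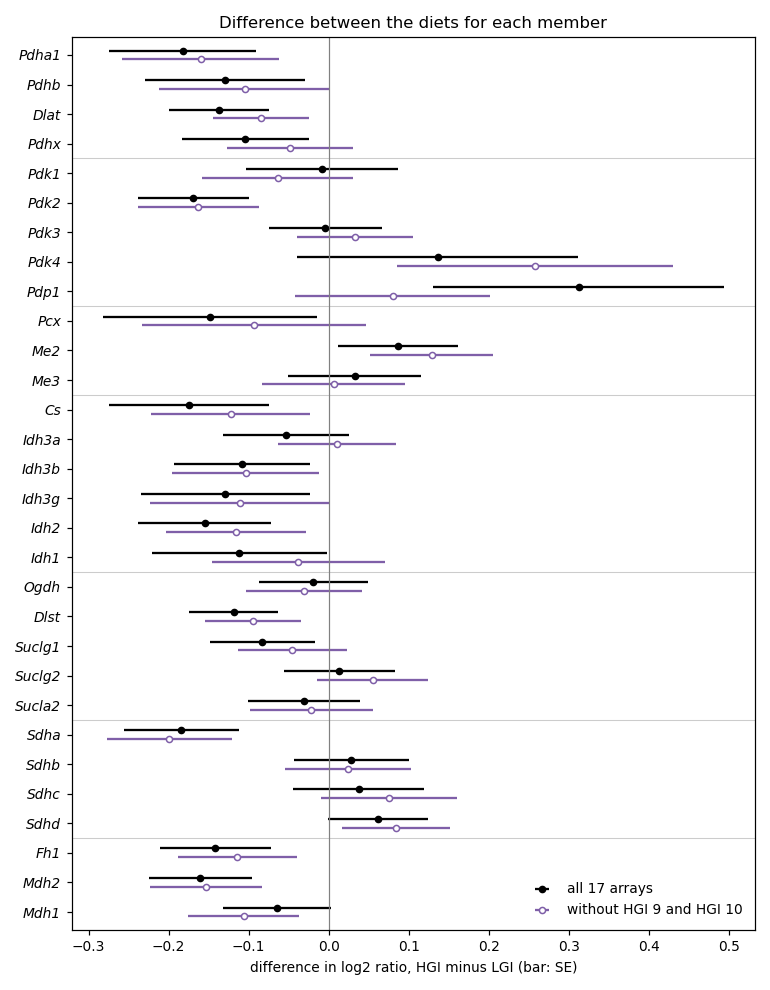
Difference in log2 ratio, HGI minus LGI, for each of the 30 measured members, with bars of 1 SE, for all 17 arrays (filled black) and without HGI 9 and HGI 10 (open purple). Genes run down the page by enzyme step, separated by grey lines. Most points lie left of 0, and Pdp1 lies at 0.31 over all arrays and at 0.08 without HGI 9 and HGI 10.

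The 4 listed genes of the pyruvate dehydrogenase complex were each lower in HGI over all arrays by their brightest probe, with a median difference of -0.13. In the first 8 arrays scanned Pdhb and Pdhx were higher, by 0.06 and 0.07. Dlat encodes the acetyltransferase that forms the core of the complex. Its levels in HGI ran from -0.08 through a median of 0.19 to 0.29, and in LGI from 0.14 through 0.27 to 0.47. HGI 9 and HGI 10 lay at the bottom of all mice for Dlat, 8 of 9 HGI mice lay below the LGI median, and the diets overlapped. The difference was -0.14 ± 0.06 (SE; limma adjusted p = 0.632), and -0.08 ± 0.06 without HGI 9 and HGI 10. A further probe of Dlat differed by -0.18 ± 0.08.

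Pdha1 encodes the catalytic alpha subunit of the first enzyme, which carries the serines that the kinases phosphorylate. It ranged from -0.28 through a median of -0.14 to 0.23 in HGI and from -0.21 through 0.17 to 0.38 in LGI. The ranges overlapped over most of their length although 8 of 9 HGI mice lay below the LGI median. Its difference of -0.18 ± 0.09 (SE, 95% interval -0.37 to 0.01) had a limma adjusted p of 0.660. Pdhb, the beta subunit of that enzyme, differed by -0.13 ± 0.10, and Pdhx, which tethers the third enzyme to the core, by -0.10 ± 0.08. Further probes of Pdha1, Pdhb and Pdhx differed by -0.12 ± 0.10, -0.21 ± 0.11 and -0.01 ± 0.09. Without HGI 9 and HGI 10 that of Pdhx was at 0.03. For Pdhb, LGI 9 was the lowest of all 17 mice, at -0.44.

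Averaged over the 4 listed genes, the complex had a mean log2 ratio of 0.05 ± 0.11 in HGI (SD, n = 9) and 0.19 ± 0.16 in LGI (SD, n = 8). Each of the 9 HGI mice was under the LGI median of 0.23, and HGI 10, at -0.14, lay below every LGI mouse. LGI 9, at -0.12, was the lowest of its diet. The difference of means was -0.14, against a pooled SD of 0.14, and -0.10 without HGI 9 and HGI 10.

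The regulators of the complex did not share a direction. Pdk2, a kinase that turns the complex off and is found in many tissues, ranged from -0.32 through a median of -0.17 to 0.05 in HGI and from -0.23 through 0.02 to 0.17 in LGI. For Pdk2, 8 of 9 HGI mice lay below the LGI median and 4 below the lowest LGI mouse, which was LGI 9. It differed by -0.17 ± 0.07 (SE; limma adjusted p = 0.588) and by -0.16 ± 0.08 without HGI 9 and HGI 10. In the authors' deposited log2 values the difference of Pdk2 was 0.06, in the other direction.

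Pdk4, the kinase that fasting and fatty acids are known to induce, was among the most variable members. It ranged from -0.45 through a median of -0.11 to 0.99 in HGI and from -0.70 through -0.05 to 0.22 in LGI. HGI 6 alone reached 0.99, the next HGI mouse, HGI 5, lay at 0.36, and HGI 9 and HGI 10 lay at the low end. The mean difference of 0.14 ± 0.18 (SE, 95% interval -0.23 to 0.50) had a limma adjusted p of 0.868, while the HGI median was the lower of the 2. Without HGI 6 the difference was 0.01, and without HGI 9 and HGI 10 it was 0.26 ± 0.17. Pdk1 differed by -0.01 ± 0.09 and Pdk3 by -0.0042 ± 0.07, and a further probe of Pdk3 by 0.08 ± 0.07.

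Pdp1, a phosphatase that turns the complex on, was singled out after its values were seen. It ranged from -0.36 through a median of -0.14 to 1.09 in HGI and from -0.54 through -0.25 to 0.07 in LGI. HGI 9 at 1.09, HGI 10 at 0.72 and HGI 6 at 0.59 lay above every LGI mouse, and the other HGI mice lay within the LGI range. The difference of 0.31 ± 0.18 (SE; limma adjusted p = 0.713) was 0.08 ± 0.12 without HGI 9 and HGI 10, the mice with the seminal vesicle signal, whose part in it was otherwise not tested. The within-diet SD was 0.42 for Pdp1 and 0.41 for Pdk4, against a median of 0.16 over the members and 0.17 over all genes tested.

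**Figure D2:**
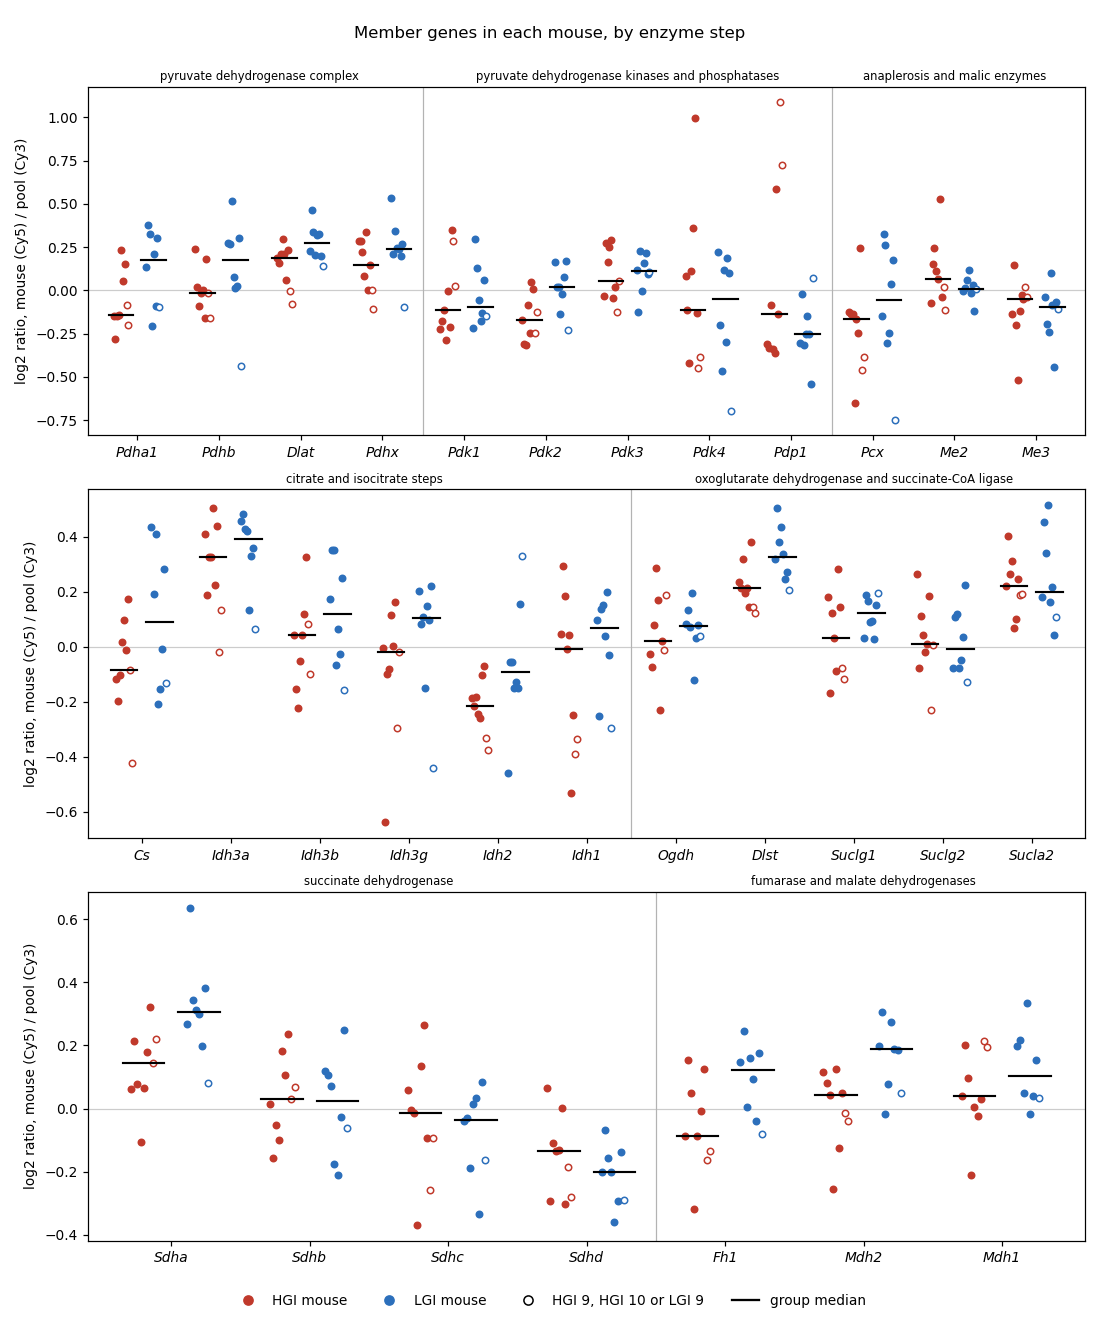
Log2 ratio of each mouse to the pool for the 30 measured members, grouped by enzyme step, with HGI mice in red on the left of each gene and LGI mice in blue on the right. Black lines are group medians and open circles mark HGI 9, HGI 10 and LGI 9. The diets overlap for every gene, and Pdp1 and Pdk4 spread most, with HGI mice up to 1.09 and 0.99.

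Of the enzymes that refill the cycle, pyruvate carboxylase (Pcx), which makes oxaloacetate from pyruvate and is abundant in fat cells, had a lower mean in HGI. It ranged from -0.65 through a median of -0.17 to 0.24 in HGI and from -0.75 through -0.06 to 0.33 in LGI. LGI 9 was the lowest of all 17 mice and HGI 4 the next, so all HGI mice lay inside the LGI range. Pcx differed by -0.15 ± 0.13 (SE, 95% interval -0.43 to 0.13; limma adjusted p = 0.808), by -0.09 ± 0.14 without HGI 9 and HGI 10, and by -0.24 without LGI 9. The mitochondrial malic enzymes, which turn malate into pyruvate, had higher means in HGI: Me2 by 0.09 ± 0.07 and Me3 by 0.03 ± 0.08. The Me3 probe was dim, well above background on all 9 HGI arrays and 7 of the 8 LGI arrays.

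The first part of the cycle was lower in HGI at all 6 genes, by a median of -0.12. Citrate synthase (Cs) joins acetyl-CoA to oxaloacetate. It ranged from -0.42 through a median of -0.08 to 0.17 in HGI and from -0.21 through 0.09 to 0.44 in LGI. LGI mice lay in a high and a low set for Cs: LGI 1, LGI 4, LGI 8 and LGI 2 were at 0.44, 0.41, 0.28 and 0.19, and the other 4 were at -0.01 or below. The difference was -0.17 ± 0.10 (SE; limma adjusted p = 0.710) and -0.12 ± 0.10 without HGI 9 and HGI 10. A further probe of Cs differed by -0.12 ± 0.09.

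The 3 subunits of the NAD-dependent isocitrate dehydrogenase, which catalyses a regulated, CO2-releasing step of the cycle, differed by -0.05 ± 0.08 (Idh3a), -0.11 ± 0.08 (Idh3b) and -0.13 ± 0.11 (Idh3g). Without HGI 9 and HGI 10 the difference of Idh3a was 0.01 ± 0.07. The NADP-dependent enzyme of the mitochondrion, Idh2, differed by -0.15 ± 0.08 (limma adjusted p = 0.675). Its HGI mice lay close together, at -0.22 ± 0.10 (SD, n = 9), and LGI mice were wider, at -0.06 ± 0.23 (SD, n = 8), with LGI 9 highest at 0.33 and LGI 1 lowest at -0.46.

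Idh1, the cytosolic NADP-dependent enzyme and a source of NADPH, ranged from -0.53 through a median of -0.01 to 0.29 in HGI and from -0.29 through 0.07 to 0.20 in LGI. HGI 6, HGI 10 and HGI 9 lay below every LGI mouse and HGI 2 above every one. The difference was -0.11 ± 0.11 (SE, 95% interval -0.34 to 0.12; limma adjusted p = 0.821) and -0.04 ± 0.11 without HGI 9 and HGI 10.

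In the steps from oxoglutarate to succinate, Dlst, the succinyltransferase core of the oxoglutarate dehydrogenase complex, had the lowest p in limma. It ranged from 0.12 through a median of 0.21 to 0.38 in HGI and from 0.21 through 0.33 to 0.51 in LGI. For Dlst, 8 of 9 HGI mice lay below the LGI median and 4 below the lowest LGI mouse, again LGI 9. Dlst had the smallest within-diet SD of the members, 0.09, and differed by -0.12 ± 0.06 (SE; limma adjusted p = 0.643), or by -0.09 ± 0.06 without HGI 9 and HGI 10. Its 2 further probes differed by -0.07 ± 0.06 and -0.03 ± 0.09.

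Ogdh, the decarboxylating enzyme of that complex, differed by -0.02 ± 0.07, with a 95% interval of -0.16 to 0.12. Of succinate-CoA ligase, which makes a nucleoside triphosphate directly, the shared alpha subunit Suclg1 differed by -0.08 ± 0.07, the ADP-forming beta subunit Sucla2 by -0.03 ± 0.07 and the GDP-forming beta subunit Suclg2 by 0.01 ± 0.07. The probes of both beta subunits disagreed. A further probe of Sucla2 differed by 0.11 ± 0.08, and a dimmer one of Suclg2, well above background on 7 HGI and 8 LGI arrays, by -0.22 ± 0.09.

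Succinate dehydrogenase oxidizes succinate in the cycle and is also complex II of the respiratory chain. Sdha is the flavoprotein that holds the catalytic site. It ranged from -0.11 through a median of 0.14 to 0.32 in HGI and from 0.08 through 0.30 to 0.64 in LGI. For Sdha, 8 of 9 HGI mice lay below the LGI median and 4 below the lowest LGI mouse, LGI 9, while HGI 7 lay above the LGI median. The difference was -0.18 ± 0.07 (SE, 95% interval -0.33 to -0.03; limma adjusted p = 0.572) and -0.20 ± 0.08 without HGI 9 and HGI 10 (adjusted p = 0.554). Its 2 further probes differed by -0.08 ± 0.06 and -0.16 ± 0.07.

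The mean differences of the other subunits were above 0 in the ratio to the pool and below 0 with Cy5 intensities alone, each smaller than its SE in the ratio. The iron-sulfur subunit Sdhb differed by 0.03 ± 0.07, and the membrane anchors Sdhc and Sdhd by 0.04 ± 0.08 and 0.06 ± 0.06, with 95% intervals of -0.12 to 0.18, -0.13 to 0.21 and -0.07 to 0.19. With Cy5 intensities alone in place of the ratio these 3 differences were -0.03, -0.03 and -0.04. Within each mouse, Sdha exceeded the mean of Sdhb, Sdhc and Sdhd by 0.18 ± 0.15 in HGI (SD, n = 9) and by 0.41 ± 0.12 in LGI (SD, n = 8), values that are each relative to the pool and say nothing of the proteins' ratio. On this measure each of the 9 HGI mice was under the LGI median and 5 lay below the lowest LGI mouse. The 4 HGI mice inside the LGI range were HGI 2, HGI 7, HGI 9 and HGI 10. Without HGI 9 and HGI 10 the HGI mean was 0.15 ± 0.16. The measure was chosen after the values of the subunits were seen, so it is given with no test.

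**Figure D3:**
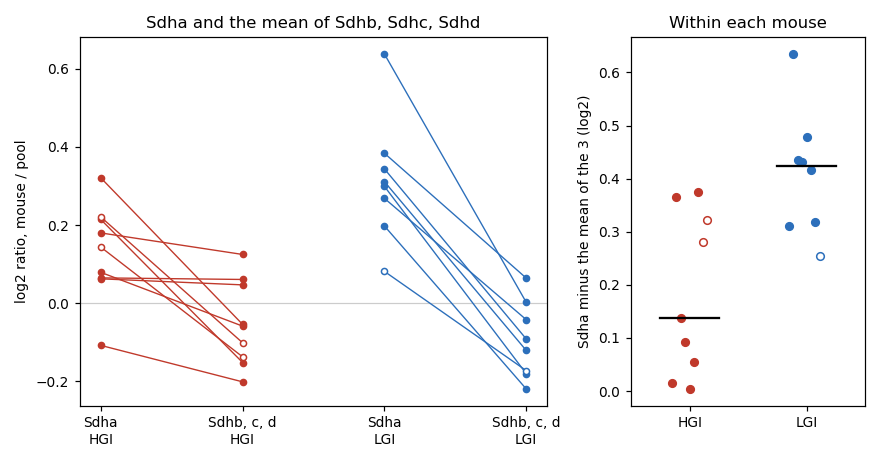
Left, log2 ratio to the pool of Sdha and the mean of Sdhb, Sdhc and Sdhd, joined within each mouse, with HGI in red on the left and LGI in blue on the right. Right, Sdha minus that mean in each mouse, with group medians in black and open circles for HGI 9, HGI 10 and LGI 9. In 5 HGI mice the value is below that of every LGI mouse, while the mean of the 3 other subunits overlaps between the diets and the 3 are higher in HGI in this ratio but lower with Cy5 intensities alone.

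The start regions of these subunits are shown because members of 1 complex differed in direction in the ratio to the pool. The windows are from RefSeq on GRCm38.p6 and hold 250 bases before and 50 after the annotated start, written 5′ to 3′ on the gene's strand. Capitals mark letters that match the core of the binding motif of NRF1, a factor known to drive nuclear genes for mitochondrial proteins (GCGCANGCG), or the half-site of the estrogen-related receptors (TNAAGGTCA), which act with PGC-1 coactivators. Both strands were searched.
Sdha, chr13:74350191-74350490, minus strand: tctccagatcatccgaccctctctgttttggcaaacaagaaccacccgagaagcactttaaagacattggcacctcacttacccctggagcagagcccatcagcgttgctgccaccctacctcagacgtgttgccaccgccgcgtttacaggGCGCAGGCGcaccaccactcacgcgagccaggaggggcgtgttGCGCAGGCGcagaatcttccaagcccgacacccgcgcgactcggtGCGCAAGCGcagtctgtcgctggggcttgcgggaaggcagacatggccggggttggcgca
Sdhb, chr4:140961021-140961320, plus strand: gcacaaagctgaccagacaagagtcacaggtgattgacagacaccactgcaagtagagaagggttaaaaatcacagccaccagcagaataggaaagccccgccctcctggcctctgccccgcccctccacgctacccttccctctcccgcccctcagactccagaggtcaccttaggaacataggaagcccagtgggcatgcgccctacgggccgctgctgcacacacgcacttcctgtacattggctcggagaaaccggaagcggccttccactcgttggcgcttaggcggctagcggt
Sdhd, chr9:50603800-50604099, minus strand: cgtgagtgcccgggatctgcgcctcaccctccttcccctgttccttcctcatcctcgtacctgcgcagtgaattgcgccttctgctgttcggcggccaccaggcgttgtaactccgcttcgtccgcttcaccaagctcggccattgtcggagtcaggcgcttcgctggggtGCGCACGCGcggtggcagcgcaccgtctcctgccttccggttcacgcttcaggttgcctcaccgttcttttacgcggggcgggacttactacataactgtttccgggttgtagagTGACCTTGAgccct

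The Sdha window holds the NRF1 core 3 times, at 98, 55 and 10 bases before the start. The Sdhd window holds 1 core, 79 bases before the start, and 1 receptor half-site 36 bases after it, read on the opposite strand. The Sdhb window holds neither. Promoters of 27 of the 31 members were matched by symbol, and 4 of these 27 genes, Ogdh, Sucla2, Sdha and Sdhd, had an NRF1 core in at least 1 window, a share of 14.8%. Of all 32851 windows 6.25% held the core and 1.28% the half-site, and by gene the core was in at least 1 window of 7.03% of 27025 genes. Another motif, the E-box CACGTG, was in windows of Pdk2, Pcx, Ogdh and the unmeasured Pdp2, 14.8% of the 27 genes, against 8.09% of all genes and 7.15% of all windows. Of the genes with a core, Sdha differed by -0.18, Sucla2 by -0.03, Ogdh by -0.02 and Sdhd by 0.06. With Cy5 intensities alone Sdhd was at -0.04. Whether the core goes with a direction was not tested. A match shows letters and says nothing of binding in these mice.

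The last steps, from fumarate back to oxaloacetate, were lower in HGI at all 3 genes, by a median of -0.14, although Mdh1 was at 0.01 with median centring. Mdh2 is the mitochondrial malate dehydrogenase, which closes the cycle. It ranged from -0.25 through a median of 0.04 to 0.13 in HGI and from -0.02 through 0.19 to 0.31 in LGI. Each of the 9 HGI mice was under the LGI median, 3 of them below the lowest LGI mouse. It differed by -0.16 ± 0.06 (SE, 95% interval -0.29 to -0.03; limma adjusted p = 0.572), and by -0.15 ± 0.07 without HGI 9 and HGI 10.

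Fumarase (Fh1), which hydrates fumarate to malate, differed by -0.14 ± 0.07 (limma adjusted p = 0.649), with 5 HGI mice below the lowest LGI mouse. Mdh1, the cytosolic malate dehydrogenase of the malate-aspartate shuttle, differed by -0.06 ± 0.07, and a further probe of it by 0.05 ± 0.08. Over all members, 17 further probes could be tested, and 13 of them had the sign of the brightest probe. The 4 that did not belong to Pdk3, Suclg2, Sucla2 and Mdh1.

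The arrays were scanned in 1 series, and the first 8 and the later 9 arrays of it each held both diets (4 HGI and 4 LGI mice, then 5 HGI and 4 LGI mice). In the first 8 the median difference of the members was 0.0035, and 15 of 30 were lower in HGI. In the later 9 it was -0.13, and 26 of 30 were lower. Over all genes tested, 48.2% had a lower HGI mean among the first 8 arrays, with a median difference of 0.005. Among the later 9 arrays that share was 46.3%, with a median difference of 0.010. With these 2 sets of arrays as a block the members' median was -0.09, as without it. The difference was lower in both parts for 14 members, higher in both for 3, and of opposite sign for 13. The matching shares over all genes were not computed, so these counts only describe the list.

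The 5 members with an unadjusted p under 0.05 were lower in both parts of the scan order. Sdha differed by -0.22 in the first 8 arrays and by -0.16 in the later 9, Pdk2 by -0.21 and -0.15, Mdh2 by -0.14 and -0.17, Dlat by -0.16 and -0.11, and Dlst by -0.09 and -0.14. They were picked over these same arrays, so this adds no support. By contrast Cs differed by -0.03 in the first 8 and -0.32 in the later 9, Pdhb by 0.06 and -0.32, and Idh1 by 0.05 and -0.26. Whether the 2 parts differ from each other was not tested. Pdp1 and Pdk4 were higher in both parts, by 0.17 and 0.45 for Pdp1 and by 0.15 and 0.10 for Pdk4.

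**Figure D4:**
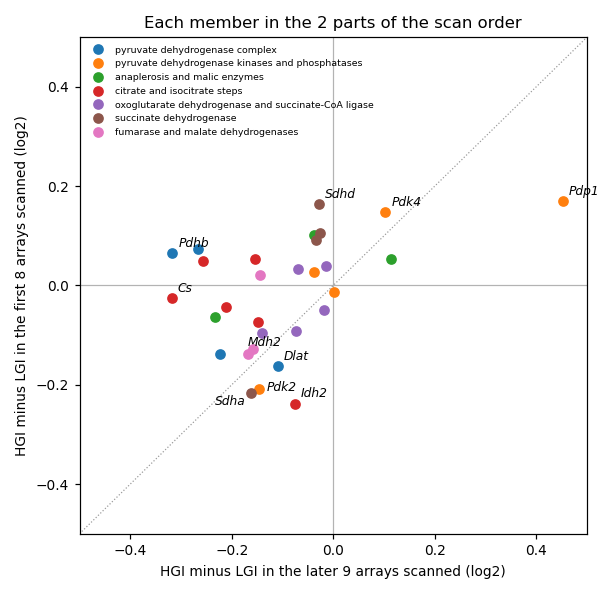
Difference in log2 ratio, HGI minus LGI, of each member in the later 9 arrays scanned (horizontal) and in the first 8 (vertical), coloured by enzyme step, with a dotted line of equality. The 14 members at the lower left are lower in both, and Pdhb, at -0.32 and 0.06, is lower in the later arrays alone.

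Mice of 1 diet differed from each other by more than the means of the diets did. The median over the members in a mouse ran from -0.09 (HGI 10) through 0.01 to 0.15 (HGI 7) in HGI and from -0.09 (LGI 9) through 0.10 to 0.19 (LGI 2) in LGI. Of the HGI mice, 8 of 9 lay below the LGI median, and LGI 9 lay just below the lowest HGI mouse. HGI 4 was the lowest of the 17 mice for 7 members, and LGI 2 the highest for 8. Without LGI 9, 9 members in place of 5 had an unadjusted p under 0.05 in limma, all lower in HGI, and 0 an adjusted one. Over all 18134 genes, in both directions, 1327 had an unadjusted p under 0.05 without LGI 9, in place of 1404.

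Mean differences were also computed for markers of cell types, and 0 of them reached an adjusted p of 0.05 in limma. Of the 12 adipocyte markers 10 were lower in HGI, by a median of -0.16, and their log2 summed intensity was 17.4 to 17.7 in HGI and 17.4 to 17.8 in LGI. Of 10 macrophage markers 9 were higher, by a median of 0.10, with sums of 14.1 to 15.2 in HGI and 14.2 to 14.8 in LGI. All 5 mesothelial markers were lower, by a median of -0.22, with sums of 10.65 to 11.61 in HGI and 10.99 to 11.70 in LGI. HGI 4, the lowest of all mice for 7 members, had the highest macrophage median, at 0.55. LGI 9 and HGI 10, the mice with the lowest member medians, had macrophage medians of -0.11 and -0.09. The part of the marker shifts in the members' differences was not tested.

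Of the other tissues, all 7 seminal vesicle markers were higher in HGI, by a median of 1.30, and 3 of 7 without HGI 9 and HGI 10, where the median was -0.01. Among markers of brown or beige fat, a tissue dense in mitochondria, Ucp1 and Elovl3 were not well above background on enough arrays to be tested, and the other 5 split into 3 higher and 2 lower. Of 6 skeletal muscle markers, Ckm, Myh4, Tnnt3 and Mylpf were likewise not tested. Acta1, the actin of skeletal muscle, differed by 0.63 ± 0.25 (limma adjusted p = 0.572), or by 0.33 without HGI 9 and HGI 10, and Myl1, a myosin light chain, by -0.18 ± 0.09. The log2 summed intensity of the 6 was 11.5 and 11.3 in HGI 9 and HGI 10, against 10.6 to 11.1 in the other mice. Its part in the members' differences was not tested.

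**Figure D5:**
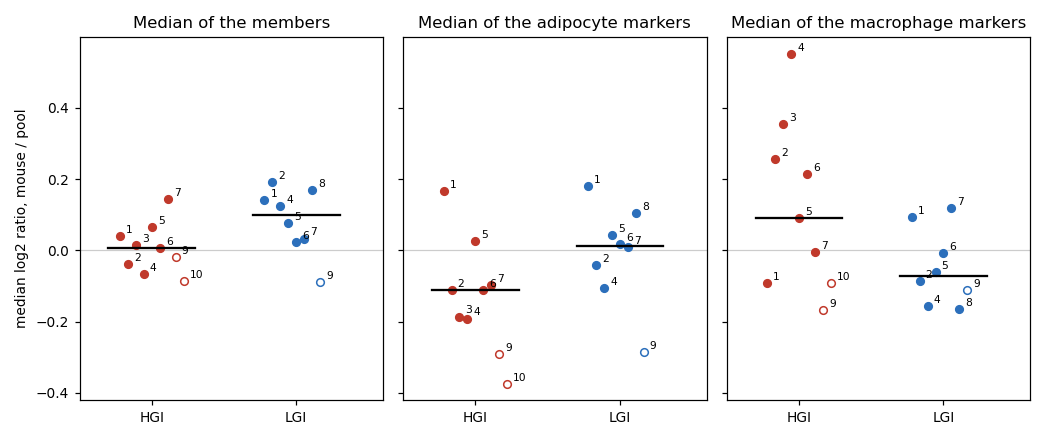
Median log2 ratio to the pool in each mouse over the 30 measured members (left), the 12 adipocyte markers (middle) and the 10 macrophage markers (right), with HGI in red on the left of each panel, LGI in blue on the right, group medians in black, replicate numbers beside the points and open circles for HGI 9, HGI 10 and LGI 9. HGI 10 and LGI 9 are low in the first 2 panels, and HGI 4 is highest in the third, at 0.55.

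Other genes of the pathway were set beside the members. Of 34 other genes of the pathway, 33 were measured. The exception was Pck1, for which no probe was found under the names used, so its level is not known here. Of these, 22 were lower in HGI, 3 of them at an unadjusted p of 0.05, with 1 higher by that rule and 0 called at an adjusted one. Over all genes tested, 3.78% were lower and 3.96% higher at that unadjusted p. The median difference was -0.09 over the members and -0.03 over the 33 other genes of the pathway, and without HGI 9 and HGI 10 it was -0.06 and -0.05. Acly, which splits exported citrate in the cytosol, differed by -0.59 ± 0.18 (limma adjusted p = 0.520), with levels of -0.45 ± 0.35 in HGI (SD, n = 9) and 0.14 ± 0.49 in LGI (SD, n = 8). Aco1, the cytosolic aconitase, differed by -0.19 ± 0.07, and Pdpr, which regulates the pyruvate dehydrogenase phosphatase, by -0.14 ± 0.07. Acss1, the mitochondrial acetyl-CoA synthetase, differed by 0.32 ± 0.12, or 0.16 with HGI 9 and HGI 10 left out.

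Of 40 genes of the respiratory chain and ATP synthase, 30 were lower in HGI, 12 of them at an unadjusted p of 0.05, with 1 higher, and the median was -0.06. By that rule 3.78% of all genes tested were lower and 3.96% were higher. Named by smallest p, Atp5g3 and Atp5c1 of the ATP synthase differed by -0.29 ± 0.09 and -0.19 ± 0.06, Uqcrc2 of complex III by -0.21 ± 0.07 and Ndufv1 of complex I by -0.14 ± 0.06. Each of these had a limma adjusted p of 0.520 or above. Of 25 genes of mitochondrial mass and biogenesis, 17 were lower, 1 of them at an unadjusted p of 0.05, and the median was -0.02. The coactivator gene Ppargc1b differed by -0.31 ± 0.10, the receptor gene Esrra by -0.17 ± 0.10 and Nrf1 by -0.14 ± 0.08, while Tfb1m, a mitochondrial rRNA methyltransferase, differed by 0.12 ± 0.06.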

How the data were processed

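The deposited scanner files hold spot intensities in both dyes, written by Agilent Feature Extraction, version 9.1.3.1 per the file headers and 9.5.1.1 per the submitters' processing notes. A deposited table of the authors' log2 values for 19836 probes, with column medians of 8.33 (scale and centring not given in the sources used here), follows Cy5 (correlations of 0.969 to 0.981) and served as an alternative. Log2 ratios of Cy5 to Cy3 were computed from the deposited intensities in R 4.3.3 (limma 3.58.1; data.table, version 1.17.8): normexp with an offset of 50, then loess within each array, with 2256 control spots and flagged spots left out. Probes above background in Cy5 (the scanner's flag) on 8 or more arrays were tested (25515 probes), and the brightest stood for its gene (18134 genes). Names came from a RefSeq table of GRCm38.p6. The array files name no build, so no probe coordinates are given. No member probe was saturated.

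HGI was compared with LGI by lmFit and eBayes over 17 arrays with no covariate, adjusted by Benjamini-Hochberg over all genes. The fit was tested on simulated data for this comparison over 18134 genes, where it recovered 11.9%, 82.1% and 100% of genes shifted by 0.2, 0.5 and 1 (log2). For 7 numbers shared by both diets, deviations of same-numbered mice correlated at -0.38 to 0.26, with 3 of 7 over 0.1, so the numbers were not taken to pair the mice. Each array was on a slide of its own, so slide could not be a block. Members and lists were chosen with earlier results of these data known. By rule, ranges are given for members with an unadjusted p under 0.05, with or without HGI 9 and HGI 10, and for Cs, Pdha1, Pdk4, Pcx and Idh1, and up to 4 genes of a context list by smallest p. Plots were drawn with Python 3.11.15 and matplotlib 3.10.9.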

Additional observations from a re-analysis of the deposited data

How the results depend on the processing

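Over all alternatives, 0 members were called at an adjusted p of 0.05. Among all genes, 1 was called with Cy5 intensities alone, 1 with array weights and 3 without LGI 7, and with 1 mouse left out the count was 0 to 3. The 5 members lower at an unadjusted p under 0.05 became 0 with median centring, 1 with the scanner software's processed signals, 1 in the earlier 8 and 2 in the last 9 arrays scanned, 3 with HGI 9 and HGI 10 left out, and 1 in the 14 arrays with shared replicate numbers, both with the replicate block and without it. The block changed no call of a member at an adjusted p. Over all 18134 genes, in both directions, 1404 had an unadjusted limma p under 0.05 in the main fit. That number was 1123 with median centring, 1316 with processed signals, 739 in the earlier 8 and 572 in the last 9 arrays. It was 1413 without HGI 9 and HGI 10, and 1169 and 1213 in the 14 arrays, with and without the block. With 1 mouse left out the count of members lower by that rule was 3 to 9: 9 without LGI 9, and 3 without LGI 2, LGI 6, HGI 6, HGI 9 or HGI 10. The count over all genes, in both directions, was then 1072 to 1631. The members' median reversed only in the first 8 arrays scanned (0.0035). It was -0.053 with median centring, -0.059 with array weights and -0.056 with HGI 9 and HGI 10 left out, against -0.093 in the main fit. It was -0.069 in the 14 arrays with shared replicate numbers and -0.13 in the last 9 arrays scanned. With 1 mouse left out it was -0.11 to -0.07.

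Of the members, 15 kept their sign throughout, 12 of them lower in HGI, and 15 reversed at least once, mostly those near 0. In the earlier 8 arrays the difference was 0.064 for Pdhb, 0.073 for Pdhx, 0.027 for Pdk1, 0.053 for Idh3a, 0.049 for Idh1, 0.032 for Ogdh and 0.021 for Mdh1. In the last 9 arrays it was 0.0016 for Pdk3, -0.037 for Me3, -0.014 for Suclg2, -0.035 for Sdhb, -0.025 for Sdhc and -0.028 for Sdhd. Cy5 intensities alone gave -0.084 for Suclg2, -0.034 for Sdhb, -0.026 for Sdhc and -0.037 for Sdhd. The authors' deposited values gave 0.063 for Pdk2, 0.099 for Pdk3 and -0.21 for Suclg2. Median centring gave 0.0035 for Pdk1, 0.011 for Pdk3, 0.0013 for Ogdh, 0.021 for Sucla2 and 0.014 for Mdh1. Another probe gave 0.076 for Pdk3, -0.22 for Suclg2, 0.11 for Sucla2 and 0.045 for Mdh1. The mean of the probes gave 0.036 for Pdk3, -0.10 for Suclg2 and 0.042 for Sucla2. Array weights gave 0.021 for Pdk3, 0.0072 for Idh3a and 0.013 for Ogdh. Processed signals gave 0.021 for Pdk3 and -0.0021 for Suclg2. With HGI 9 and HGI 10 left out it was 0.033 for Pdk3 and 0.011 for Idh3a. With LGI 9 left out as well it was 0.034 for Pdk3. The replicate block, and the same arrays with no block, gave 0.0060 for Pdk1. With 1 mouse left out, the range was -0.057 to 0.039 for Pdk1, -0.036 to 0.023 for Pdk3, -0.012 to 0.085 for Me3, -0.049 to 0.015 for Ogdh, -0.016 to 0.046 for Suclg2, -0.061 to 0.0067 for Sucla2, -0.0033 to 0.063 for Sdhb and -0.00091 to 0.078 for Sdhc. The cause was not tested.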
